A study of Homo sapiens with 4 samples.

Results

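The genes described here are 40 members of glycolysis and of the transcriptional response to low oxygen, chosen by name. They comprise the glucose transporters, the glycolytic enzymes and their regulators, the genes that handle pyruvate and lactate, HIF1A with 2 of its prolyl hydroxylases, and a set of hypoxia-responsive genes. A probe set was taken for a member where its single gene symbol in the platform annotation was that member's. This gave 84 probe sets of 37 members, and 36 members, with 73 probe sets, passed a filter on low signals (at least 56.4 on 1 of the arrays, the median of all signals), out of 13717 genes that passed it. SLC16A1, SLC16A3 and CA9 had no probe set named in this way and are not analysed here. P4HA2 had 3 probe sets with highest signals of 53.7, 37.9 and 23.6, below the filter, while the dimmest probe sets that passed it, of SLC2A1, ENO1 and PDK1, reached 61.3, 65.6 and 70.1.

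The samples came from Jurkat, an established line of human T cell leukaemia, and filled 4 arrays, 1 for each group. A control line (called a vector line in the sample titles and a control shRNA line in the design text) and a line in which IKKε was targeted by a hairpin RNA (the shIKKE line) each received solvent or 10 ng/ml PMA with 0.5 uM ionomycin for 3 h. PMA activates protein kinase C and ionomycin raises intracellular calcium, and the pair mimics signals of the T cell receptor. Whether either line was a clone or a pool, and whether the cultures were separate, is not given in the sources used here. Since each group is 1 array, no replicate checks a difference between arrays, and these differences carry no p-value.

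Glycolysis splits glucose into pyruvate in the cytosol, and proliferating T cells and leukaemia lines run it at a high rate, with lactate as the main product. Hypoxia-inducible factor 1, whose oxygen-regulated subunit is encoded by HIF1A, raises the transcription of most glycolytic genes and of genes for mitophagy, collagen hydroxylation and blood vessel growth. The subunit is marked for degradation by the prolyl hydroxylases encoded by EGLN1 and EGLN3, so that HIF1A messenger levels alone say little about its activity. In T cells, the same genes are also known to respond to growth signals through MYC and the mTOR kinase.

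Over all probe sets, the arrays had median signals from 48.8 to 69.1, and their means after trimming lay at the same value. RNA integrity, read from the array's own controls as 5′ over 3′ signal, lay between 0.244 (control line with solvent) and 0.401 for ACTB and between 1.04 and 1.17 for GAPDH. All 12 T cell markers looked at passed the filter, and their summed signals lay between 73237 and 81115 per array. The summed signals of 5 myeloid markers reached 273 at most, and those of 4 B cell markers 584. IKBKE, the targeted gene, read 340 and 180 in the control and shIKKE lines with solvent and 520 and 248 with stimulation by one probe set, and 218, 287, 311 and 280 in the same order by another, which with solvent went the opposite way.

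The binding core of hypoxia-inducible factor in DNA is ACGTG or GCGTG, and the promoters of members with the widest differences between arrays, with PGK1 as a member that lay within 2-fold in every comparison, are shown with these letters in capitals. They were chosen after the values were seen, among genes with 1 promoter window in the table. Each run is the 250 bases before a RefSeq transcription start of build GRCh38.p14, 5′ to 3′ on the strand of the gene, and both strands were searched, so that CACGT and CACGC are also in capitals. CACGTG holds ACGTG on both strands and is also the E-box that MYC binds.
PFKFB4: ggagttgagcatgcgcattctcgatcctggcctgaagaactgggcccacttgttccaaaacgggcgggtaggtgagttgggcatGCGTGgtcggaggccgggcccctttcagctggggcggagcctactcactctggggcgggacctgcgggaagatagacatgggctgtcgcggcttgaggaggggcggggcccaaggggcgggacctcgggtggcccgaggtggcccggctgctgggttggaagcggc
ALDOC: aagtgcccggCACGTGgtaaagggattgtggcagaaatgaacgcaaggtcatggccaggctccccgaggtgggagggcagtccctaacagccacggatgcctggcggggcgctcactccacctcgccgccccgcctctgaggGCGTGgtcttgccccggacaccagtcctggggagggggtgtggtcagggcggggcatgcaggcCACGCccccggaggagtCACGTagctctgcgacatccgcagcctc
BNIP3: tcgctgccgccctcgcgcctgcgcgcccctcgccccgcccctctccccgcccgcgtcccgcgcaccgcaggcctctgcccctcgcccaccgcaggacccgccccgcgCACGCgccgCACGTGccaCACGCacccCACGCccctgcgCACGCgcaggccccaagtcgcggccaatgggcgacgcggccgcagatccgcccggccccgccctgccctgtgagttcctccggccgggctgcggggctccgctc
P4HA1: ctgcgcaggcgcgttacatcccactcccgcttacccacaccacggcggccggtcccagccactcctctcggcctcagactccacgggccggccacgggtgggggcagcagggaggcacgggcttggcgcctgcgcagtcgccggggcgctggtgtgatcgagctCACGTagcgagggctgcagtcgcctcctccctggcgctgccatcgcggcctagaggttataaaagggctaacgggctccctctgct
ENO2: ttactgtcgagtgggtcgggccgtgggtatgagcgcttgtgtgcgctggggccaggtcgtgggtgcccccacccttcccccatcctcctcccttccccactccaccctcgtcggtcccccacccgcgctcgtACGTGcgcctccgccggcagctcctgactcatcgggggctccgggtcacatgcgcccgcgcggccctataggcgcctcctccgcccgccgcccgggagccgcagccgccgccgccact
DDIT4: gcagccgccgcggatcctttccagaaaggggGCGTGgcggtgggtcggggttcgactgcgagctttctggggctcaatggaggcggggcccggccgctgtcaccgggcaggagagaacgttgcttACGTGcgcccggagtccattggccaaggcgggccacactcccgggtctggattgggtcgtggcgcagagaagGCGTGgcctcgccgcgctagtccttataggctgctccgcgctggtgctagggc
PGK1: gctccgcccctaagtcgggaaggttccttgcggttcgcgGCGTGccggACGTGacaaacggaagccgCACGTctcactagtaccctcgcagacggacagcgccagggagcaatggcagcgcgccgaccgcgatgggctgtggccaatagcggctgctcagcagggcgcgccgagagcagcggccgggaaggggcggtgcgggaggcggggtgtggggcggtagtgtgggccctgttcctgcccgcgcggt
These windows lie at chr3:48556804-48557053 (PFKFB4), chr17:28576896-28577145 (ALDOC), chr10:131981924-131982173 (BNIP3) and chr10:73096867-73097116 (P4HA1) on the minus strand. Those of ENO2 (chr12:6914330-6914579), DDIT4 (chr10:72273674-72273923) and PGK1 (chrX:78103998-78104247) lie on the plus strand. Of the 40 members, 34 had a promoter window, and 22 had exactly 1. ACGTG was found in 12 of those 22 windows (54.5%), against 18.4% of the 22114 genes with 1 window, and GCGTG in 9 (40.9%), against 31.1%. PFKFB4 held GCGTG once, 166 bases before the start, and no ACGTG. BNIP3 held CACGTG 134 bases before the start among 4 copies of GCGTG, and ALDOC held CACGTG at 240 bases and ACGTG on the other strand at 28 bases. PGK1 held ACGTG at 2 places. A match describes letters in a window and is not a measured binding site.

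The array of the control line with solvent carried the highest values of most members. It was the highest of the 4 arrays for 25 of 36 members (69.4%), against 31.7% of all genes. It stood at least 2-fold above each of the other 3 arrays for 7 members (19.4%), against 1.35% of all genes, and none of the other 3 arrays did so for any member, against 0.474% of all genes for the stimulated control line, 0.321% for the shIKKE line with solvent and 1.75% for the stimulated shIKKE line. In that order these arrays were the highest for 4, 4 and 3 members, against 18.9%, 24.6% and 24.7% of all genes. These 7 were ALDOC, PFKFB4, PDK1, BNIP3, BNIP3L, NDRG1 and P4HA1. This way of counting was chosen after the data were seen. Because there is 1 array of the control line with solvent, the part of that single sample in each result could not be tested, and a change in RNA per cell cannot be told apart from a change in the share of cells that express a gene.

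**Figure D1:**
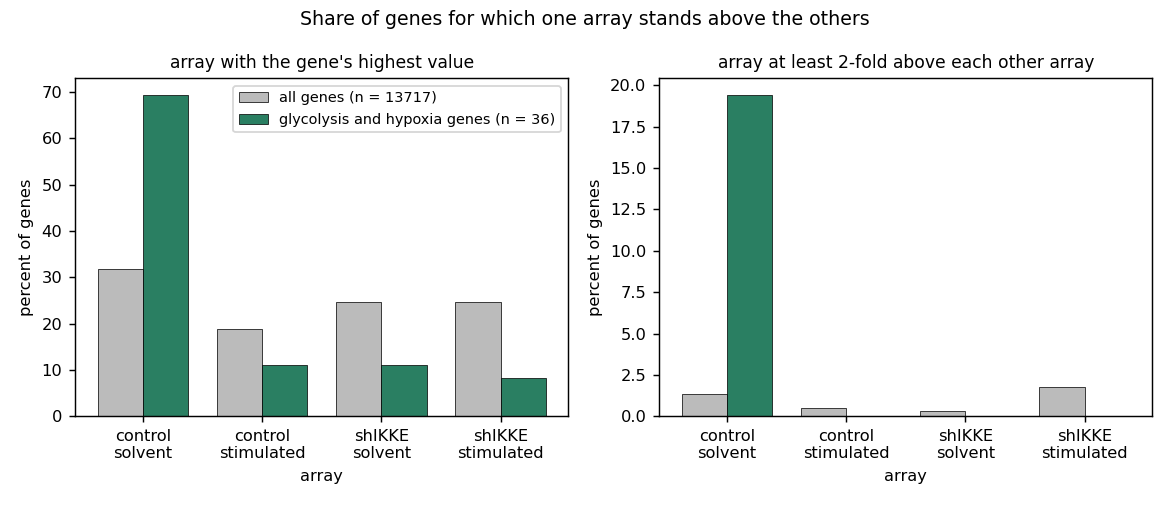
For each of the 4 arrays, the bars give the percent of all 13717 genes (grey) and of the 36 measured glycolysis and hypoxia genes (green) for which that array held the highest value (left) or stood at least 2-fold above each other array (right). The control line with solvent held the highest value for 69.4% of the members and 31.7% of all genes.

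Differences below are of log2(signal + 14.1), a scale on which changes of dim genes appear too small, and a difference was counted from 2-fold (a log2 difference of 1) upward. The first question was what PMA and ionomycin did in each line. In the control line, 8 of 36 members were at least 2-fold lower with stimulation, against 6.44% of all genes, and 0 were higher, against 7.57%. The median log2 difference of the members was -0.32, against -0.07 over all genes, and 29 of 36 lay below 0. In the shIKKE line, 1 member (PFKFB4) was lower, against 2.68% of all genes, 1 (VEGFA) was higher, against 10.3%, and 34 lay within 2-fold. The median there was -0.04, against -0.01 over all genes.

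The next question was how the lines differed. With solvent, the shIKKE line was lower by 2-fold or more for 9 of 36 members, against 6.68% of all genes, and 0 were higher, against 4.34%. The median log2 difference was -0.37, against -0.05 over all genes, and 31 of 36 lay below 0. With stimulation, 0 members were at least 2-fold lower, against 2.37% of all genes, and 0 were higher, against 5.99%. The median was then -0.22, against 0.03 over all genes. The response of the control line and the line difference with solvent both use the control line's solvent array, while the response of the shIKKE line and the line difference with stimulation do not use it and are the values without it.

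**Figure D2:**
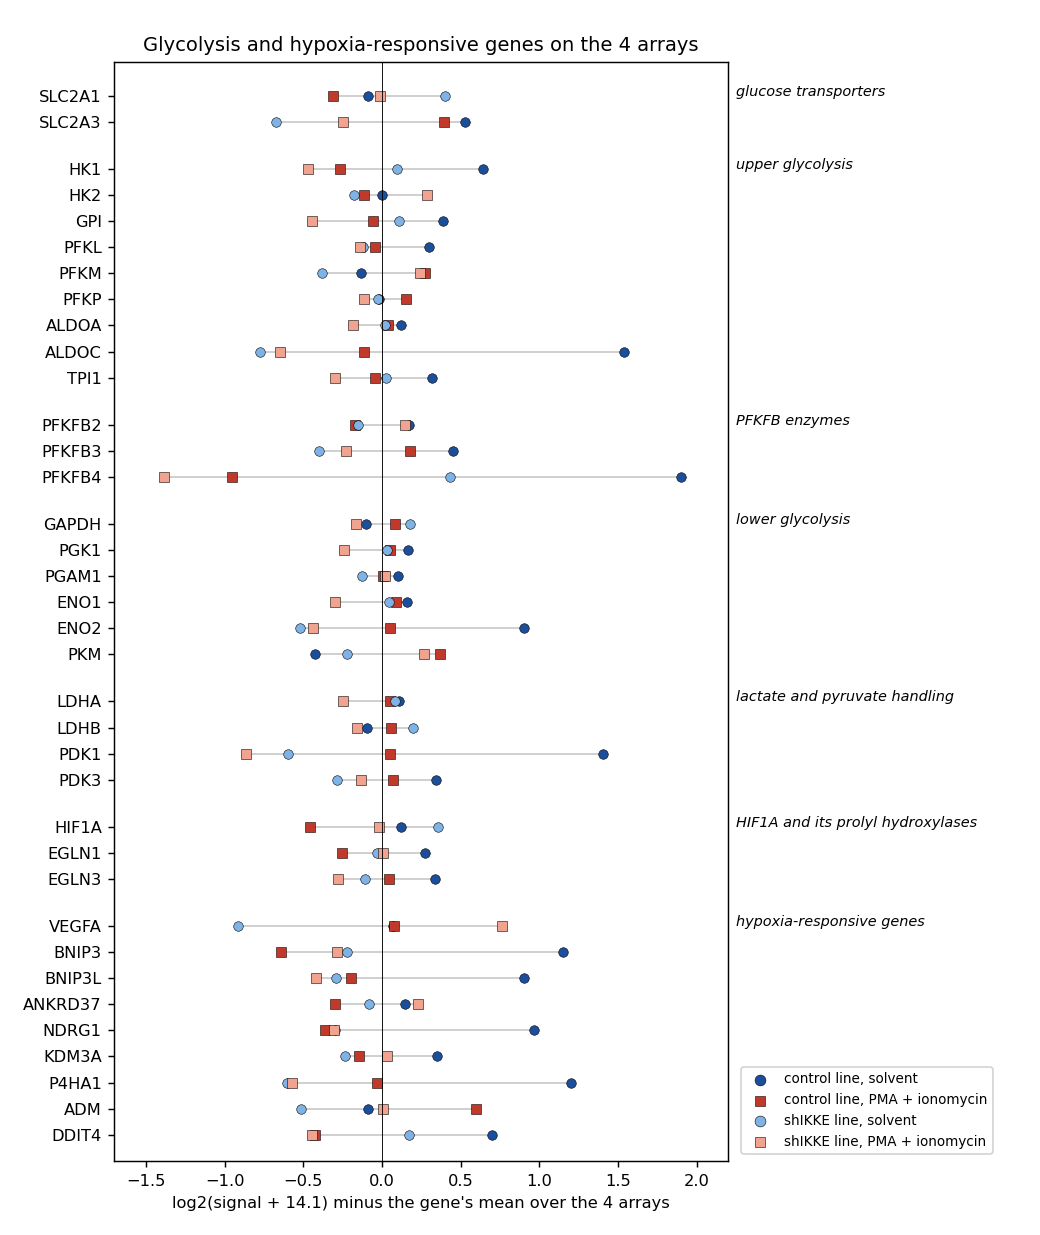
Each row is a member and each point an array, as log2(signal + 14.1) minus the gene's mean over the 4 arrays, ordered by role. The dark blue circles of the control line with solvent lie farthest to the right for 25 of 36 members, while the 4 points of most enzymes of lower glycolysis lie close together.

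Glucose enters the cell through transporters. SLC2A1, which encodes the widespread transporter GLUT1, read 594 (solvent) and 507 (stimulated) in the control line, and 841 and 628 in the shIKKE line. By this probe set it was higher in the shIKKE line in both treatments, by log2 0.49 and 0.30, both within 2-fold. A dim second SLC2A1 probe set, reading 51.5, 60.8, 61.3 and 49.0 in that order, gave 0.20 with solvent but -0.25 with stimulation. For stimulation in the control line it gave 0.19, where the brighter gave -0.22. SLC2A3, encoding the high-affinity transporter GLUT3, read 604, 549, 254 and 346 in the same order, which is used below throughout. Both arrays of the shIKKE line were lower than both of the control line, with log2 differences of -1.20 with solvent and -0.64 with stimulation. The other 2 SLC2A3 probe sets gave -1.31 and -0.87 with solvent, but -0.35 and 0.25 with stimulation.

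In upper glycolysis, glucose is phosphorylated and split. The hexokinase gene HK1 read 1590, 839, 1086 and 728, lower with stimulation in both lines (log2 -0.91 and -0.57). HK2, the inducible hexokinase gene, read 3879, 3570.0, 3425 and 4726, and the highest of the 4 arrays was 1.38-fold above the lowest. Both dimmer HK2 probe sets went another way. The first read 255, 447, 744 and 390, and gave log2 1.49 between the lines with solvent. The second read 297, 265, 483 and 273, and gave 0.68. For stimulation in the shIKKE line they gave log2 -0.91 and -0.79, where the brightest gave 0.46. The isomerase gene GPI read 8208, 6024, 6769 and 4601, with the lower value in each line after stimulation. Of the phosphofructokinase genes, which encode the committing step, PFKL, PFKM and PFKP lay between -0.42 and 0.62 in all 4 comparisons. The aldolases differed from each other. ALDOA, the form of most tissues, read 17302, 16381, 16165 and 14051, all within 1.23-fold. A dimmer ALDOA probe set read 3722, 2740, 2738 and 3146. It gave log2 -0.44 for stimulation in the control line and -0.44 between the lines with solvent, where another bright one gave -0.05 and -0.04. ALDOC, the brain-type aldolase gene and a known target of hypoxia-inducible factor, read 1500.3, 467, 291 and 319. The first array was at least 2-fold above the others, which lay within log2 0.66 of each other. The ALDOC difference was log2 -1.65 with stimulation in the control line, 0.13 in the shIKKE line, -2.31 between the lines with solvent and -0.53 with stimulation. TPI1, encoding triose phosphate isomerase, read 15651, 12209.5, 12773 and 10228 by its brightest probe set. That probe set lay between -0.36 and -0.26 in all 4 comparisons. A dim one, reading 188, 110, 241 and 161, gave -0.70 and -0.54 for stimulation in the control and shIKKE lines. Between the lines it went the opposite way, by 0.34 with solvent and 0.50 with stimulation.

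The bifunctional PFKFB enzymes set the level of fructose 2,6-bisphosphate, which activates phosphofructokinase. PFKFB4 read 1217, 156, 430.1 and 112. It was the 1 member lower by at least 2-fold with stimulation in both lines, 7.25-fold in the control line (log2 -2.86) and 3.52-fold in the shIKKE line (log2 -1.82). Between the lines, the shIKKE signal differed by log2 -1.47 under solvent and by log2 -0.43 under stimulation. A second PFKFB4 probe set reached 32.8 at most and did not pass the filter. PFKFB3, the strongly kinase-biased form, read 1572, 1298, 868 and 976. Both shIKKE arrays were below both control arrays, by log2 -0.85 with solvent and -0.41 with stimulation. PFKFB2 read 320.1, 249, 253 and 313, with no 2-fold difference. However, a dim probe set of it, at 83.2 at most, gave log2 1.95 and -1.16 for stimulation in the control and shIKKE lines. That probe set also gave log2 -2.22 between the lines with stimulation.

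Lower glycolysis, from GAPDH to pyruvate kinase, yields ATP and NADH. GAPDH read 26025, 29478, 31605 and 24875, PGAM1 14712, 13729, 12538 and 13851, and ENO1 24258, 23117, 22391 and 17610. From the lowest to the highest array these 3 genes differed by 1.27-fold, 1.17-fold and 1.38-fold. Of the 3 dimmer ENO1 probe sets past the filter, 1 that read 65.6 at most gave line differences of log2 -1.76 with solvent and -1.98 with stimulation, where the other two gave -0.34 and -0.02 with solvent and -0.33 and -0.61 with stimulation. PGK1 read 25296, 23388, 23055 and 19078. Its 5 other probe sets gave a line difference with solvent between -0.61 and -0.52, where this one gave -0.13. ENO2, the neuronal enolase gene and another known hypoxia target, stood apart from ENO1 and read 3305, 1829, 1226 and 1295. Its log2 differences were -0.85 with stimulation in the control line, 0.08 in the shIKKE line, -1.42 between the lines with solvent and -0.49 with stimulation. PKM, encoding pyruvate kinase, was higher on both stimulated arrays, reading 3195, 5554, 3682 and 5174 (log2 0.80 and 0.49). A dimmer PKM probe set, reading 105, 988, 211 and 975, gave 3.07 and 2.14 for the same comparisons. The 2 stimulated arrays thus read higher than the 2 solvent arrays by both PKM probe sets.

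Pyruvate is reduced to lactate or enters the mitochondrion, where pyruvate dehydrogenase kinases hold it back. The lactate dehydrogenase genes LDHA (27581, 26520, 27131 and 21563) and LDHB (27348, 30292, 33354 and 26085) each spanned 1.28-fold from the lowest to the highest array. PDK1, the kinase gene known as a direct target of hypoxia-inducible factor, read 3820, 1483, 941 and 782. Its highest array was again the control line with solvent, and both shIKKE arrays were below both control arrays. The log2 differences were -1.36 with stimulation in the control line, -0.26 in the shIKKE line, -2.01 between the lines with solvent and -0.91 with stimulation. A second PDK1 probe set, reading 286, 143, 145 and 200, gave -0.93 with stimulation in the control line and -0.92 between the lines with solvent, and another, at 70.1 at most, gave 0.23 and 0.60. With the median of the probe sets, PDK1 lost both 2-fold calls. PDK3 read 2693, 2234, 1743 and 1937 and stayed within 2-fold. For stimulation its 4 other probe sets ranged from log2 -1.06 to 0.56 in the control line and -0.50 to 1.59 in the shIKKE line. Between the lines with solvent, the one that reached 200 at most gave log2 -1.13, and the rest lay between -0.73 and -0.24.

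**Figure D3:**
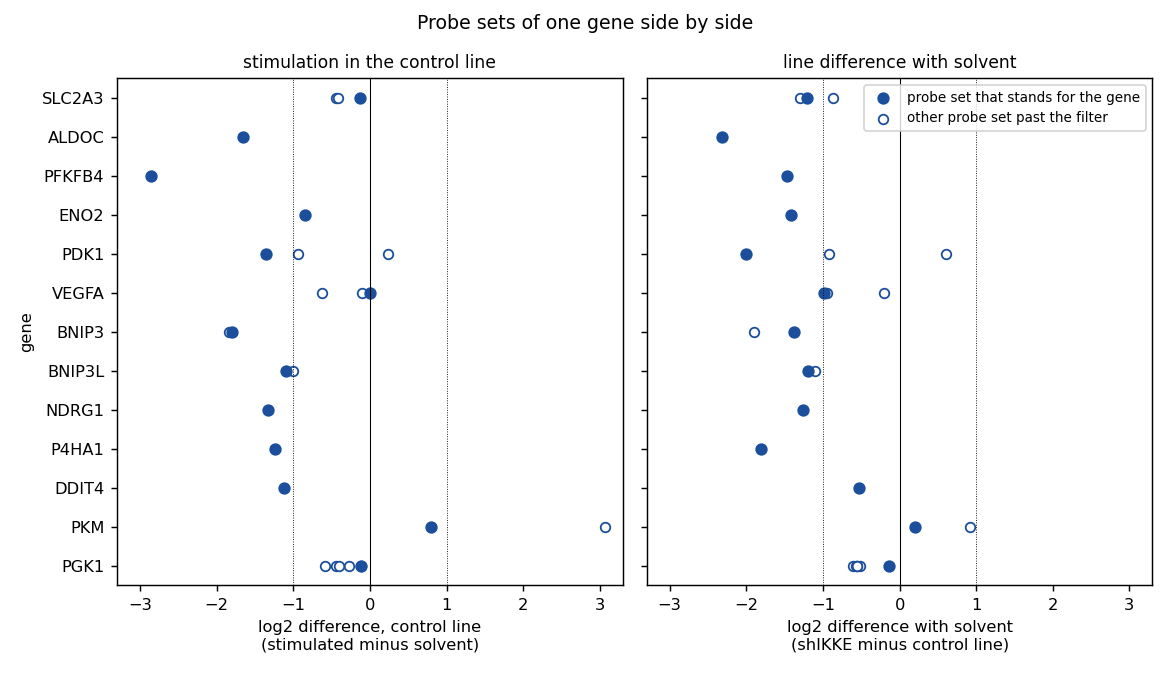
Log2 differences of every probe set past the filter for the 11 members at least 2-fold different in a comparison, and for PKM and PGK1, with the probe set that stands for the gene filled. The 2 probe sets of BNIP3L lie close together in both panels and those of BNIP3 in the left one (-1.37 and -1.89 in the right), while those of PDK1 range from -1.36 to 0.23 (left) and from -2.01 to 0.60 (right).

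HIF1A itself read 7017, 4695, 8276 and 6372. It was lower with stimulation in both lines (log2 -0.58 and -0.38) and higher in the shIKKE line in both treatments (0.24 and 0.44), all within 2-fold. Its level with solvent was therefore not highest in the control line, unlike those of the 7 members above. EGLN1, encoding the main oxygen sensor of the pathway, read 2761, 1907, 2232 and 2293, and EGLN3, a hydroxylase gene that is itself hypoxia-inducible, read 119, 95.2, 84.4 and 73.3. Neither reached 2-fold, and both were highest in the control line with solvent. A dimmer EGLN3 probe set read 104, 49.6, 48.3 and 70.7. It gave log2 0.44 for stimulation in the shIKKE line and 0.41 between the lines with stimulation, where the brighter gave -0.17 and -0.32. For stimulation in the control and shIKKE lines, a dimmer EGLN1 probe set gave -0.82 and 0.23, and another -0.86 and -0.27. The brightest gave -0.53 and 0.04.

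The hypoxia-responsive genes held most of the 2-fold differences. In the control line, 5 of 9 measured were at least 2-fold lower with stimulation, with a median log2 difference of -1.10, and in the shIKKE line 0 were lower, 1 was higher and the median was 0.03. Over all genes, 6.44% and 2.68% were that much lower after stimulation of control and shIKKE cells, with medians of -0.07 and -0.01. Between the lines, 4 of 9 were lower in the shIKKE cells with solvent (median -0.99) and 0 with stimulation (median 0.06), against 6.68% and 2.37% of all genes (medians -0.05 and 0.03). BNIP3, a receptor for the removal of mitochondria, read 6975, 2001, 2686 and 2570. Its differences were log2 -1.79 and -0.06 for stimulation in the control and shIKKE lines and -1.37 and 0.36 between the lines with solvent and stimulation, and a second probe set gave -1.84, -0.04, -1.89 and -0.09. BNIP3L, its homologue also called NIX, read 9542, 4445, 4147 and 3805. P4HA1, a collagen prolyl hydroxylase subunit gene, read 4272, 1808, 1209 and 1238. NDRG1, a stress-induced gene often used as a marker of hypoxia, read 1743, 685, 718 and 714, so that the other 3 arrays lay within log2 0.07 of each other. In each of these 4 genes 1 array was high and the other 3 lay within log2 0.575 of each other. DDIT4, an inhibitor of mTOR signalling, read 1366, 618, 944 and 611, lower with stimulation in both lines (log2 -1.13 and -0.62).

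In the other 4 hypoxia-responsive genes, as in DDIT4, the control line with solvent was not 2-fold above the other arrays. VEGFA, the gene of a vascular growth factor, read 246, 247, 117 and 406, highest in the stimulated shIKKE line (log2 1.68 over solvent). The other 2 VEGFA probe sets past the filter gave 0.43 and 1.16 for that difference. ADM, encoding the vasodilator peptide adrenomedullin, was dim at 98.9, 168, 70.1 and 107 and higher on the stimulated array of each line (log2 0.69 and 0.52). ANKRD37 (659, 482, 562 and 702) and the histone demethylase gene KDM3A (3591, 2539, 2387 and 2871), both described as targets of hypoxia-inducible factor, stayed within 2-fold, with KDM3A highest in the control line with solvent.

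**Figure D4:**
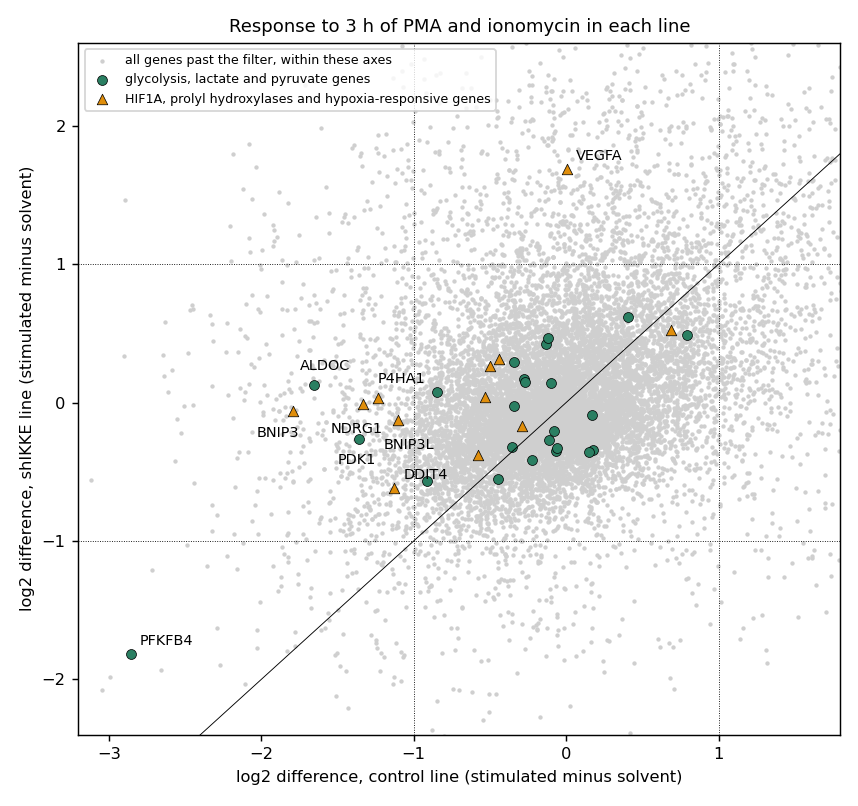
Each point is a gene, with its log2 difference for stimulation in the control line (x axis) and in the shIKKE line (y axis), which share no array. Genes outside the axes are not drawn, dotted lines mark 2-fold, and 7 of the 8 labelled members left of -1 lie between -0.62 and 0.13 on the y axis, with PFKFB4 at -1.82.

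**Figure D5:**
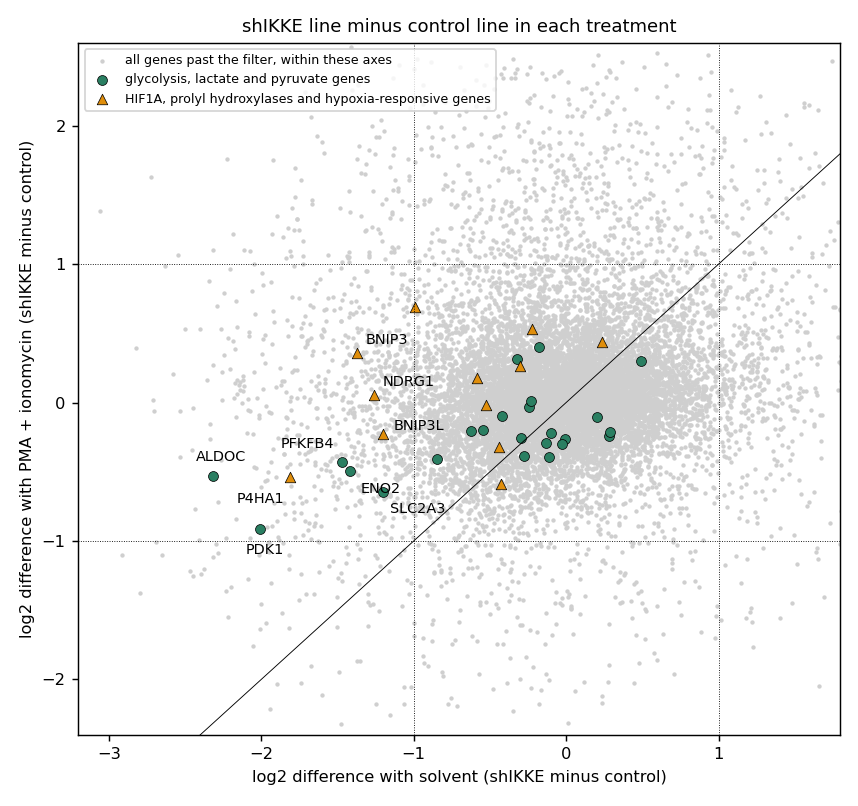
Each point is a gene, with the log2 difference of the shIKKE line minus the control line with solvent (x axis) and with stimulation (y axis), which share no array. Genes outside the axes are not drawn, and the 9 members left of -1 lie between -0.91 and 0.36 on the y axis.

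The responses of the lines were then set against each other, as the response of the shIKKE line minus that of the control line. This difference was at least 1 on the log2 scale for 7 of 36 members (19.4%), against 11.4% of all genes, and at most -1 for 0 members, against 4.67%. The members were ALDOC (1.78), BNIP3 (1.73), VEGFA (1.68), NDRG1 (1.32), P4HA1 (1.27), PDK1 (1.09) and PFKFB4 (1.04), and the median of all 36 was 0.38. These counts take a single probe set per gene. Other probe sets past the filter gave -1.68 for HK2 and -3.10 for PFKFB2, and 1.33 for EGLN3 and 1.05 for EGLN1, among others. The difference uses all 4 arrays and has no error of its own.

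An additive model with terms for line and for stimulation was fitted with limma to all 13717 genes on the 4 arrays. Its 1 residual degree of freedom is the difference between the responses of the lines, not an error between replicates. For stimulation 0 of 36 members had an adjusted p at most 0.05 (limma, Benjamini-Hochberg over all genes, two-sided), against 0.00729% of all genes, and 3 had an unadjusted p under 0.05 (8.33%), against 13.8%. Those 3 were PFKFB4 (log2 -2.34 ± 0.34, SE, limma adjusted p = 0.132), DDIT4 (-0.87 ± 0.27) and HK1 (-0.74 ± 0.26). PFKFB4 was lower in both lines, and its adjusted p ranged from 0.000879 to 0.289 over the other pseudocounts, filters, scalings and probe set choices, being 0.000973 with a pseudocount of 50 and 0.000879 with a filter at 200.

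For the line, 0 of 36 members passed in the same fit, against 0% of all genes, and 6 had an unadjusted p under 0.05 (16.7%), against 7.29%. They were PDK1 (log2 -1.46 in the shIKKE line; limma adjusted p = 0.564), P4HA1 (-1.17), ALDOC (-1.42), ENO2 (-0.96), PFKFB4 (-0.95) and SLC2A3 (-0.92). With an error variance that follows the signal level, 7 members passed for stimulation, among them BNIP3, PDK1 and DDIT4, of which 6 were lower and PKM was higher, and 5 passed for the line, all lower in the shIKKE line. These were ALDOC, PDK1, P4HA1, ENO2 and BNIP3L. The error of that fit follows the signal level and not a gene's own difference between the lines' responses. BNIP3 and BNIP3L passed for stimulation, where their responses in the control line were log2 -1.79 and -1.10. In the shIKKE line their responses were -0.06 and -0.12. In that fit 7.61% of all genes passed for stimulation and 1.69% for the line.

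Genes of the same and neighbouring pathways that are not members gave a background of related functions. Of 18 other glycolysis and pyruvate genes, 15 lay within 2-fold in all 4 comparisons. All 7 measured pentose phosphate genes did so as well. Of 18 tricarboxylic acid cycle genes, 16 and 18 lay within 2-fold for stimulation in the control and shIKKE lines. Between the lines these counts were 17 with solvent and 18 with stimulation. Of all 13717 genes, 11794, 11932, 12205 and 12570 lay within 2-fold in these 4 comparisons, taken in that order, so most genes did. The share within 2-fold in all 4 at once was not counted over all genes. Of 33 other hypoxia-pathway genes, 8 were at least 2-fold lower with stimulation in the control line and 3 were higher, and 2 and 2 in the shIKKE line. Over all genes the shares lower and higher were 6.44% and 7.57% in the control line and 2.68% and 10.3% in the shIKKE line. With solvent, 4 were lower and 2 higher in the shIKKE line, and with stimulation 1 and 1, against 6.68% and 4.34% of all genes with solvent and 2.37% and 5.99% with stimulation. The control line with solvent stood at least 2-fold above each other array for 4 of these 33 (12.1%, against 1.35% of all genes), which were singled out once their values were known. MIR210HG, the host transcript of the hypoxia-induced microRNA miR-210, read 268, 6.6, 39.4 and 15.8. PPFIA4 read 165, 6.6, 25.7 and 12.9, the nuclear receptor gene RORA 1145, 313, 479 and 352, and the histone demethylase gene KDM4B 3368, 1628, 1503 and 1015. The probe sets of MIR210HG and PPFIA4 passed the filter on low signals only by the control line with solvent. For these genes, being measured and standing above the other arrays were therefore not independent. RORA and KDM4B lay above the filter on every array. How often this held among the 1.35% of all genes was not counted. BHLHE40, a transcriptional repressor gene induced by hypoxia and by T cell activation, was the 1 gene of these lists at least 2-fold different in the same direction in both lines. It read 282, 1588, 197 and 1234 and was higher on both stimulated arrays (log2 2.44 and 2.56).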

How the data were processed

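Each value in the deposited table is an intensity, the linear MAS5 signal of a probe set (MAS5 per the submitters' processing notes). Neither version, scaling target nor genome build is stated in the sources used here. Scaling in MAS5 sets a common mean that bright probe sets dominate, and no detection calls were used. Gene names came from the platform annotation. All 84 member probe sets matched RefSeq gene IDs. A gene's value is that of the probe set whose mean log2(signal + 14.1) was highest, the pseudocount being the 25th percentile of all signals, after leaving out 62 array controls and probe sets under 56.4 on every array. Differences between single arrays have no test. Average effects come from limma 3.58.1 (lmFit, eBayes; R 4.3.3), tested on simulated data, and other steps used Python 3.11.15 and pandas 2.3.3. Spread between probe sets of one gene had a median SD of 0.17 to 0.32 over the comparisons (19 members, the highest SD being 1.97). Those probe sets share the same arrays, so this spread is not an error between arrays, of which no measure is available. The p-values measure only these 4 samples, which may differ technically. Alternatives were the pseudocount, the filter, the scaling, the probe set taken for a gene and the error model. Members differing by 2-fold, or whose probe sets past the filter went opposite ways, are named with the signals of the probe set taken for the gene. The brightest probe set of each role is also given. Not every other probe set of these members is listed. The members, lists and rules were chosen with earlier results of these data known.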

Additional observations from a re-analysis of the deposited data

Results flagged for a closer look

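In 4 members the effect in one line or treatment was at least 2-fold and the effect in the other had the opposite sign, with 1 array per group. ALDOC was lower with stimulation in the control line and slightly higher in the shIKKE line, with responses 1.78 apart on the log2 scale, and P4HA1 likewise, 1.27 apart. Under solvent BNIP3 was lower in the shIKKE line, but under stimulation it was higher, 1.73 apart, and NDRG1 likewise, 1.32 apart. A second BNIP3 probe set was lower in the shIKKE line in both (log2 -1.89 with solvent and -0.09 with stimulation). None of these differences was tested, and each uses the single array of the control line with solvent. The effects of the opposite sign were log2 0.13, 0.03, 0.36 and 0.06 for ALDOC, P4HA1, BNIP3 and NDRG1.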

How the results depend on the processing

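Of 152 repeats of the counts and medians under other settings, 142 stayed close to the value reported (a count within 1.5 times, a median within the median SD between probe sets of one gene). With each array centred on its median, which moved the median of all genes for stimulation to -0.21 in control and -0.24 in shIKKE cells, the median of the members in the shIKKE line was -0.27. Taking the median over a gene's probe sets gave 1 member that was higher by 2-fold or more for stimulation in the control line, and 1 in the line difference with solvent. Such a median, taken array by array, can set different probe sets against each other, as it did for HK2 in that line difference. The median of the differences within each probe set, chosen after seeing the data, gave 1 member (PKM) higher by 2-fold or more for stimulation of control cells, and 2 (PKM and VEGFA) for shIKKE cells. With probe sets without a cross-hybridisation suffix preferred, 1 member (ENO1) was lower by 2-fold or more in the stimulated shIKKE line. The dim probe set that then stood for ENO1 read 56.3 and 3.7 in the stimulated control and shIKKE lines. In limma, 1 member (PFKFB4) passed for stimulation with a pseudocount of 50 and 1 with a filter at 200, and 7 and 5 passed for stimulation and for the line with an error variance that follows the level. The cause of these moves was not tested. Over all genes, 54.0% of those at least 2-fold different were higher with stimulation in control and 79.4% in shIKKE cells, against 42.8% and 59.6% after quantile normalization and 39.4% and 60.0% after centring, while the members at least 2-fold lower in the control line were 8, 8 and 9. Of the 19 called differences of single members, repeated 171 times, 5 fell under 2-fold and none changed sign. PDK1 fell to log2 -0.93 and -0.92 by both kinds of median. VEGFA fell to 0.68 by the median taken array by array, and gave 1.16 within probe sets. Leaving out a replicate was not possible with 1 array per group, and limma's fit of stimulation already has the line as a term.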
